A study of Mus musculus with 6 samples.

Results

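The genes described here are 10 noncoding host genes of small nucleolar RNAs (snoRNAs), *Snhg1*, *Snhg3*, *Snhg5*, *Snhg6*, *Snhg8*, *Snhg12*, *Snhg15*, *Snhg17*, *Snhg18* and *Gas5*. They were chosen by gene symbol, with earlier results of these data known, and all 10 were found among the 55487 genes of the count table. The question was whether an siRNA against *Snhg18* left the other members of this family at their control level. Mouse pulmonary artery smooth muscle cells (mPASMCs) received either an siRNA against *Snhg18* (si-*Snhg18*) or a negative control siRNA (si-NC), and 3 libraries were made per group. The labels name the groups Snhg18 knockdown and Control. Both groups were bought, cultured cells at a low passage that went through transfection with a Lipofectamine reagent, and neither the strain and age of the mice they came from nor the oxygen level and time of the sequenced cells is given in the sources used here. A single siRNA against *Snhg18* is listed, and nothing says whether the 3 repeats were separate cultures, so p-values measure only the spread between these libraries.

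A snoRNA host gene is transcribed and spliced like other genes, and its introns hold the snoRNAs, which are trimmed out of the excised introns. Box C/D snoRNAs guide 2′-O-methylation of ribosomal RNA and box H/ACA snoRNAs guide pseudouridylation. The joined exons of many noncoding hosts carry only short reading frames, are read by ribosomes and are removed by nonsense-mediated decay, so the level of a spliced host reports both its transcription and its decay. *Gas5* is known as a transcript that builds up in growth-arrested cells, and several *Snhg* transcripts have been studied for roles of their exons in cell growth. The counts below are of reads on the exons of these genes in mRNA libraries, not of the small RNAs.

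The 10 host genes lie on 8 chromosomes of the mouse build GRCm38 and are annotated as long intergenic noncoding RNAs or processed transcripts. Coding genes overlap the span of 3 of them, *Rcc1* at *Snhg3* on the same strand, and *Mcmdc2* at *Snhg6* and *Zbtb37* at *Gas5* on the opposite strand. *Snhg18* (ENSMUSG00000096956) is on the minus strand at chr15:32240565-32244662 and has a single annotated transcript of 1486 bases with 2 exons. *Gas5* (ENSMUSG00000053332), on the plus strand at chr1:161034422-161038539, has 25 annotated transcripts with 2 to 12 exons. *Snhg8* (ENSMUSG00000104960), on the minus strand at chr3:123507552-123508404, has 3. The 10 genes enclose 32 snoRNA positions, of which 9 are in *Gas5*, 8 in *Snhg1*, 4 in *Snhg12* and 3 in *Snhg17*. *Snhg3* and *Snhg5* hold 2 each, and *Snhg6*, *Snhg8*, *Snhg15* and *Snhg18* hold 1 each.

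Sequences of a snoRNA from *Snhg18*, *Gas5* and *Snhg8* are shown because these 3 hosts carry the results below. In *Snord123*, the snoRNA of *Snhg18* (chr15:32241853-32241923, minus strand, in its intron), and in *Snord47*, a snoRNA of *Gas5* (chr1:161038082-161038158, plus strand), the capitals mark a TGATGA near the 5′ end and a CTGA near the 3′ end, the letters of boxes C and D. In *Snora24*, the snoRNA of *Snhg8* (chr3:123507937-123508066, minus strand), they mark the ACA that ends 3 bases before the 3′ end. The letters are those of GRCm38, 5′ to 3′ in the direction of the host.
Snord123: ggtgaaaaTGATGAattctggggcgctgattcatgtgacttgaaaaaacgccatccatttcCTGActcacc
Snord47: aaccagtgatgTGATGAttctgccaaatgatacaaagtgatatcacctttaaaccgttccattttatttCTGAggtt
Snora24: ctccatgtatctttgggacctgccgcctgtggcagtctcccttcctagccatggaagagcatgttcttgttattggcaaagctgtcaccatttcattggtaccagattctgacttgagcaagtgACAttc
The first 2 are of the C/D class, with 71 and 77 bases, and the last is of the H/ACA class, with 130 bases.

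An siRNA can also act on another transcript that shares a stretch of its target, so the annotated transcript of *Snhg18* was compared with all 85 annotated transcripts of the other 9 genes. The longest exact run that *Snhg18* shared with any member on the same strand was between 10 and 13 bases. With *Gas5* it was ATGATACAAAGTG, whose letters also stand inside *Snord47* above. With *Snhg1* it was TCCTGATGGTTGA, and *Snhg8* shared no run over 10 bases on that strand. On the opposite strand the longest run was between 10 and 14 bases, the latter with *Snhg1* and *Snhg17*. Such runs describe the sequences and do not show whether the siRNA acted on a transcript.

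The libraries held 18097718 to 25988746 counted reads, and the 10 hosts together took 2706 to 4082 of them. A single member had between 72 and 1536 reads in a library, above the floor of 3 reads taken as the limit of detection. That floor equals 0.115 to 0.166 CPM (reads scaled to the library size) and covers counting error only. All 10 members passed the filter on low counts, which left 14531 genes for testing. The CPM below carry TMM factors, a log2 fold change (log2FC) is si-*Snhg18* over si-NC, and a gene is called changed at an adjusted p under 0.05 from edgeR's quasi-likelihood test with Benjamini-Hochberg adjustment over all tested genes. At that threshold 7.36% of all tested genes were called, 3.65% higher and 3.71% lower. The 8 smooth muscle markers, among them *Acta2* and *Myh11*, were all detected, and their summed level was 1728 to 1911 CPM in si-NC and 1169 to 1900 CPM in si-*Snhg18* libraries. Of these *Tagln* was called lower (log2FC -0.51, adjusted p = 0.0427 by edgeR), 1 of 8 (12.5%). With the repeat number as a block, which compares libraries of the same number, 4 of the 8 were called, all lower (50%). Of all tested genes 27.2% were called with the block. Of 15 markers of other cell types, 7 had at most 14 reads in any library and *Cd3e* and *Sftpc* had none. Their sum, mostly the collagen gene *Col1a1*, was 2367 to 3052 and 1414 to 2304 CPM. The leukocyte marker *Cd53* was called lower, with a log2FC of -1.10 (adjusted p = 0.00727 by edgeR), as far as *Snhg18*. Other leukocyte markers did not follow it. *Cd14* had a log2FC of 0.59 (adjusted p = 0.539, and 0.00369 with the block, by the same test). *Csf1r* had -0.14 (adjusted p = 0.86 from the same test), and *Ptprc* had at most 8 reads. *Cd53* was the 1 called of 8 tested markers of other cell types (12.5%). With the block 1 was called higher and 4 lower (62.5%, against 27.2% of all tested genes). The part of these shifts in the results was not tested, and in bulk RNA fewer cells of a type and less RNA per cell cannot be told apart.

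The targeted gene was the 1 member called lower. *Snhg18* was at 23.49, 22.38 and 22.16 CPM in the si-NC libraries, in the order of their repeat numbers, and at 10.64, 11.15 and 9.973 CPM after si-*Snhg18*. The 3 libraries of a group lay close together and the groups were far apart. Its log2FC was -1.10 (95% interval -1.33 to -0.86, adjusted p = 0.00727 by edgeR), a fold of 0.467 with an interval from 0.397 to 0.551. With 1 library left out at a time, the log2FC stayed between -1.14 and -1.06 and the call held in 3 of the 6 fits.

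**Figure D1:**
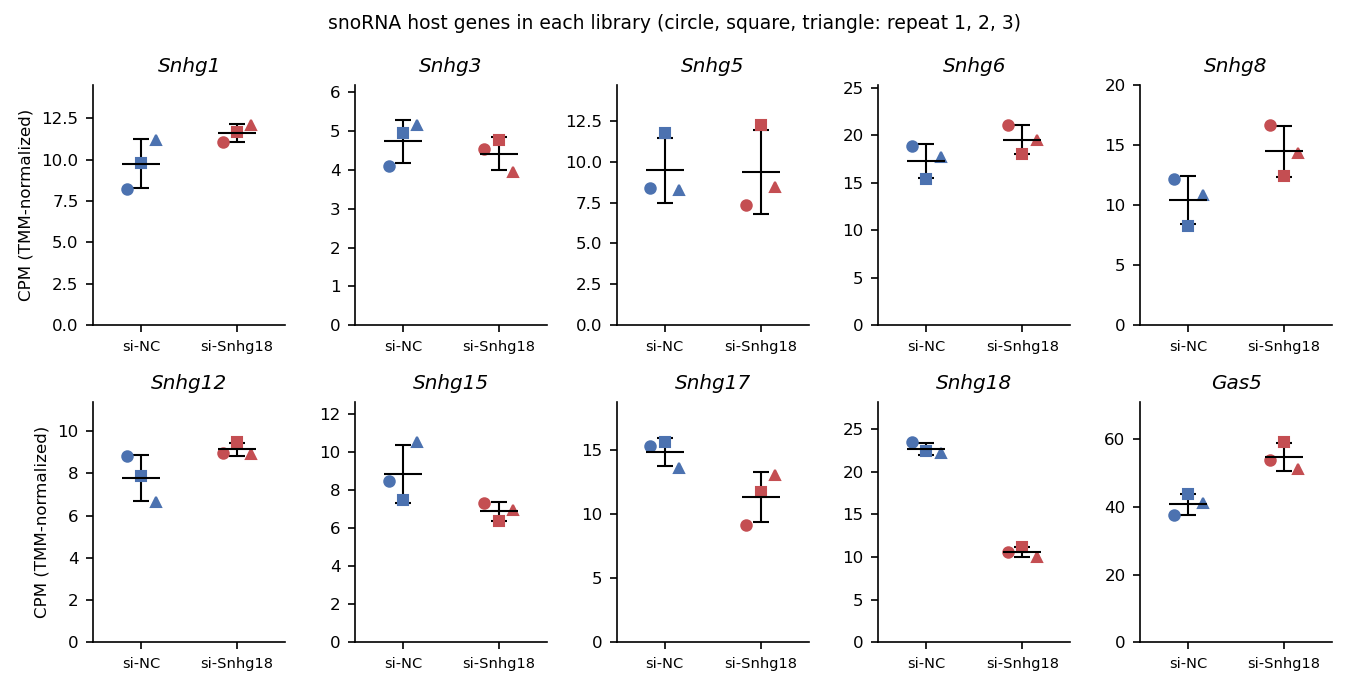
TMM-normalized CPM (vertical axes, from 0) of each of the 10 host genes in the 3 si-NC (blue) and 3 si-*Snhg18* (red) libraries, with circles, squares and triangles for repeats 1, 2 and 3 and black bars for the mean ± SD. *Snhg18* falls from above 22 to about 10 to 11 CPM, *Gas5* lies higher in all si-*Snhg18* libraries, and both squares of *Snhg5* lie above the other libraries of their groups.

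Among the other 9 hosts, *Gas5* was called changed, in the opposite direction. The most abundant member, it was at 37.47, 43.65 and 41.05 CPM in si-NC libraries and at 53.66, 59.06 and 50.96 CPM in si-*Snhg18* libraries. Every si-*Snhg18* library was above every si-NC library. *Gas5* rose 1.34-fold (95% interval 1.15 to 1.57; log2FC 0.42, standard error 0.09, adjusted p = 0.0477 by edgeR). This p lay just under the threshold. It was 0.0558 with library totals in place of TMM factors and 0.0818 without the filter on low counts, and with 1 library left out at a time the call held in 1 of the 6 fits, with a log2FC of 0.36 to 0.47. With the repeat number as a block, which compares libraries within pairs of the same number, the adjusted p was 0.00654. *Gas5* overlaps the start of the coding gene *Zbtb37* on the opposite strand, and *Zbtb37* itself had a log2FC of -0.11 (adjusted p = 0.779 from the same test).

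Of the 9 other hosts, 1 was thus called (11.1%), against 7.36% of all tested genes. With the block it was 2 of 9 (22.2%), against 27.2% of all tested genes, so in neither fit did the share stand clear of the background. The second gene was *Snhg8*. It was at 12.17, 8.249 and 10.8 CPM in si-NC libraries and at 16.7, 12.46 and 14.36 CPM in si-*Snhg18* libraries. The groups just missed each other, and in both groups library 1 was the highest and library 2 the lowest. The log2FC of *Snhg8* was 0.48 (95% interval 0.03 to 0.93), the widest departure from 0 among the 9. The adjusted p was 0.178 without the block and 0.0180 with it, by the same test.

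The members with the next smallest p-values lay on the lower side. *Snhg17* was at 15.28, 15.64 and 13.6 CPM in si-NC and at 9.18, 11.73 and 13.04 CPM in si-*Snhg18* libraries. The groups did not overlap, though si-*Snhg18* 3 came close to si-NC 3. Its log2FC was -0.39 (95% interval -0.77 to -0.01, adjusted p = 0.187 from the same test, and 0.0809 with the block). *Snhg15*, a host known for a short-lived transcript, was at 8.505, 7.514 and 10.55 CPM in si-NC and at 7.36, 6.383 and 6.96 CPM in si-*Snhg18* libraries. The highest si-*Snhg18* value lay just under the lowest si-NC value. Its log2FC was -0.36 (95% interval -0.77 to 0.05, adjusted p = 0.249 from the same test).

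*Snhg12*, *Snhg1* and *Snhg6* leaned to the higher side without a call. *Snhg12* was at 8.85, 7.881 and 6.652 CPM in si-NC and at 8.982, 9.497 and 8.932 CPM in si-*Snhg18* libraries. Its groups did not overlap, by a margin that was small beside the spread within si-NC, and its log2FC was 0.23 (95% interval -0.12 to 0.58, adjusted p = 0.383 from the same test). *Snhg1*, long known as a host whose spliced RNA is discarded, was at 8.246, 9.801 and 11.19 CPM in si-NC and at 11.04, 11.65 and 12.11 CPM in si-*Snhg18* libraries. The groups overlapped, and the log2FC was 0.25 (95% interval -0.10 to 0.60, adjusted p = 0.340 from the same test). *Snhg6*, which carries *Snord87*, was at 18.91, 15.4 and 17.71 CPM in si-NC and at 21.13, 17.99 and 19.56 CPM in si-*Snhg18* libraries. Its groups also overlapped, with library 2 the lowest of both, and the log2FC was 0.17 (95% interval -0.12 to 0.46, adjusted p = 0.418 from the same test).

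*Snhg5* and *Snhg3* had estimates nearest 0. *Snhg5*, the host of the *Snord50* pair, was at 8.418, 11.76 and 8.262 CPM in si-NC and at 7.36, 12.27 and 8.439 CPM in si-*Snhg18* libraries. It was highest in library 2 of both groups, and the spread between repeats exceeded the difference between the groups. The log2FC of *Snhg5* was -0.02 (95% interval -0.60 to 0.57, adjusted p = 0.972 from the same test). *Snhg3*, which carries the *Snora73* pair that acts in the processing of 18S ribosomal RNA, was at 4.101, 4.941 and 5.169 CPM in si-NC and at 4.551, 4.768 and 3.946 CPM in si-*Snhg18* libraries. These ranges overlapped, with a log2FC of -0.10 (95% interval -0.52 to 0.33, adjusted p = 0.772 from the same test). The span of *Snhg3* is shared with the coding gene *Rcc1* on the same strand (log2FC 0.09, adjusted p = 0.633 from the same test), so the division of reads between them is uncertain.

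**Figure D2:**
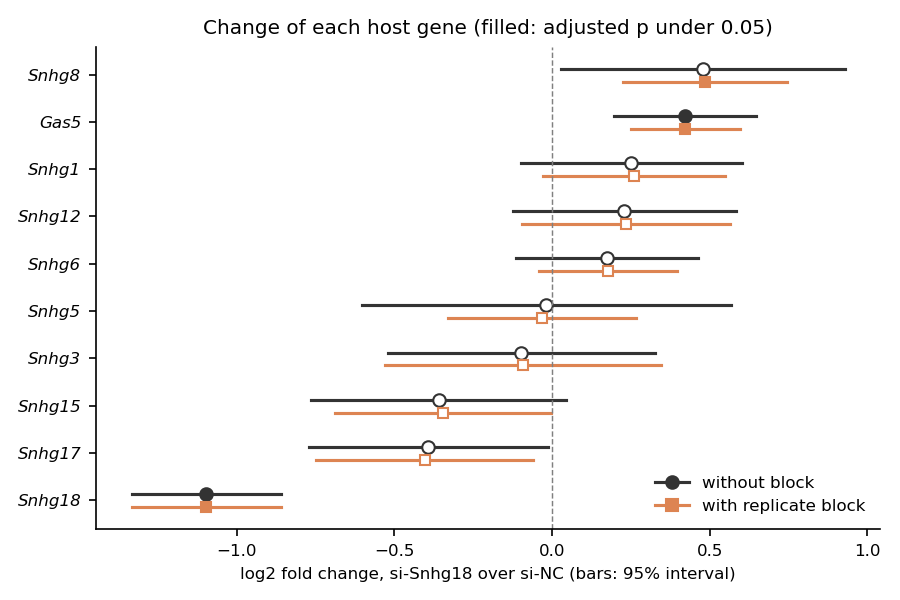
Log2 fold change of each host gene, si-*Snhg18* over si-NC, with 95% intervals, without (dark circles) and with (orange squares) the repeat number as a block; filled symbols have an adjusted p under 0.05. The interval of *Snhg18* lies apart from those of the other 9 genes; *Gas5* is filled in both fits and *Snhg8* with the block.

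Over the 9 other hosts, 5 estimates were higher and 4 lower, and the median log2FC was 0.17, against 0.01 over all tested genes. An unadjusted p under 0.05 was seen for 3 of 9 (33.3%), against 24.9% of all genes. The CPM of the groups did not overlap for 5 of 9 (55.6%), against 30.9% of all genes, and of these *Gas5*, *Snhg8* and *Snhg12* were on the higher side and *Snhg15* and *Snhg17* on the lower side. With a change of at least 1.5-fold also required, *Snhg18* was the 1 member left, and 3.67% of all genes passed. A missed threshold does not show that a gene stayed the same, and 6 of the 9 intervals held 0. The intervals nevertheless bounded the changes. None of the 9 reached a halving or a doubling, the lowest bound being that of *Snhg17* at 58.6% of its si-NC level, and 0 of the 9 extended down to -0.86, the upper bound of *Snhg18*.

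The ratio of *Snhg18* to each other member within a library needs no scaling between libraries. This ratio was lower in si-*Snhg18* cells for 9 of 9 members, without overlap between the groups. Because *Snhg18* itself fell, a lower ratio does not set these members apart from other genes, for which it was not computed. The smallest difference in log2 ratio was against *Snhg17*, -0.69, from 0.61 ± 0.09 (SD, n = 3) in si-NC to -0.08 ± 0.30 (SD, n = 3) in si-*Snhg18* libraries. The greatest were against *Snhg8*, -1.58, and *Gas5*, -1.52. The 9 comparisons share the reads of *Snhg18*, and each gave a two-sided exact permutation p of 0.1 (0.1 after adjustment over the 9), the smallest that 3 libraries against 3 allow.

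Levels were compared between members per kilobase of the exon length given in the table (RPKM), which equalled the length of a single annotated transcript for 8 members and of none for *Snhg5* and *Snhg15*, so the order of levels is less certain than the changes. In si-NC cells *Gas5* was at 94.7 ± 7.22 RPKM (SD, n = 3), far above *Snhg6* at 36.7 ± 3.78 RPKM and *Snhg8* at 23.2 ± 4.45 RPKM. *Snhg1* (16.1 RPKM), *Snhg18* (15.3 RPKM), *Snhg15* (14.5 RPKM) and *Snhg3* (14.3 RPKM) followed, and from *Snhg8* to *Snhg3* each neighbouring pair overlapped in its si-NC values. *Snhg17* (9.56 RPKM), *Snhg12* (8.70 RPKM) and *Snhg5* (6.40 RPKM) formed the lower end, where neighbours overlapped too. The si-NC values did not overlap between *Gas5* and *Snhg6*, *Snhg6* and *Snhg8*, or *Snhg3* and *Snhg17*. In si-*Snhg18* cells *Snhg18* was at 7.13 ± 0.397 RPKM (SD, n = 3) and went from rank 5 to rank 9 of the 10. It lay between *Snhg17* at 7.29 ± 1.26 RPKM and *Snhg5* at 6.32 ± 1.74 RPKM. Its mean differed from theirs by less than their SD, so the order of these genes is uncertain.

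*Snhg18* made up 6.71%, 6.34% and 6.09% of the summed reads per kilobase of the 10 hosts in the si-NC libraries, and 2.57%, 2.67% and 2.52% in si-*Snhg18* libraries. The share was thus 6.38% ± 0.316 and 2.59% ± 0.0742 (SD, n = 3 each, two-sided exact permutation p = 0.1, the smallest possible). The fall of *Snhg18* by itself lowers its share, so this comparison adds no separate evidence. *Gas5* made up 39.6% ± 2.89 of the family in si-NC and 46.0% ± 2.42 in si-*Snhg18* libraries (SD, n = 3 each). All shares are parts of a single total, so a lower *Snhg18* share by itself raises those of the others. The summed CPM of the 9 other hosts was 122, 124.8 and 125 in si-NC and 140, 145.8 and 138.3 in si-*Snhg18* libraries, with no overlap, and *Gas5* contributed most of this difference. With *Snhg18* included the sums were 147 ± 1.00 and 152 ± 4.48 CPM (SD, n = 3 each).

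**Figure D3:**
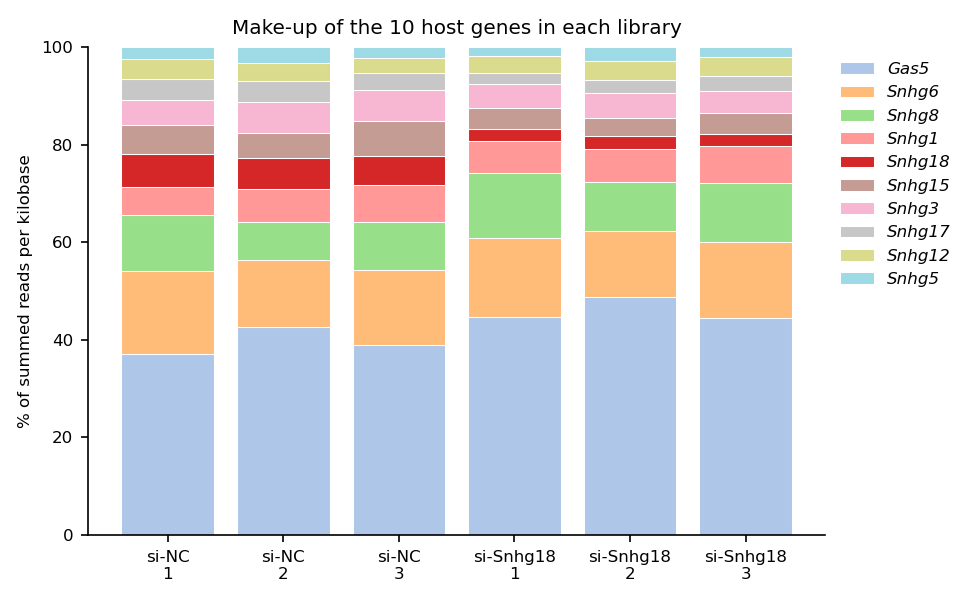
Share of each host gene in the summed reads per kilobase of the 10 genes (vertical axis, percent) in each of the 6 libraries, *Snhg18* in dark red. The *Snhg18* band narrows from 6.09 to 6.71% in si-NC to 2.52 to 2.67% in si-*Snhg18* libraries, and *Gas5* is the widest band in all 6.

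The study examined the factor Sp1 at the *Snhg18* promoter, so GC boxes, the letters that Sp1-type factors recognise, were counted in the promoters of the family. In the RefSeq promoter table (GRCm38.p6, 250 bases before to 50 after a start), 9 of the 10 genes had an entry, with 11 starts in all, and *Snhg6* had none. GGGCGG or its complement CCGCCC, overlapping matches included, occurred 5 times at *Snhg18*, 5 and 3 times at the 2 starts of *Gas5*, 4 times at *Snhg8* and 2 times at *Snhg5*. *Snhg12* and *Snhg3* had none, and the others had at most 1 per start. At least 1 match was found in 35.7% of the 32851 promoters of this length and at least 5 in 2.71%. The windows of *Snhg18* (chr15:32244613-32244912, minus strand), of *Gas5* at its downstream start (chr1:161034916-161035215, plus strand) and of *Snhg8* (chr3:123508287-123508586, minus strand) are shown, since these are the members called in either fit, with the GC boxes in capitals.
Snhg18: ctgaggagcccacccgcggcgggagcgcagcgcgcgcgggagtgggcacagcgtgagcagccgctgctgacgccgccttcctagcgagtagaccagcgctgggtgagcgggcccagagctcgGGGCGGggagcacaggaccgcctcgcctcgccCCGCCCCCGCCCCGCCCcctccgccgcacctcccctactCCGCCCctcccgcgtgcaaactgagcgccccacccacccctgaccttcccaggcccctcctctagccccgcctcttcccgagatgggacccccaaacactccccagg
Gas5: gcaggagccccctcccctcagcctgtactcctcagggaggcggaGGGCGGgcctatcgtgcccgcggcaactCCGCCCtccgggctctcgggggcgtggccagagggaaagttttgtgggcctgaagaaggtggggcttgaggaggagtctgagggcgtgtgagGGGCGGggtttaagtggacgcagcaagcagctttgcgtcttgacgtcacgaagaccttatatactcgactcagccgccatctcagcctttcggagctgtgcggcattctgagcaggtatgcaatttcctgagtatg
Snhg8: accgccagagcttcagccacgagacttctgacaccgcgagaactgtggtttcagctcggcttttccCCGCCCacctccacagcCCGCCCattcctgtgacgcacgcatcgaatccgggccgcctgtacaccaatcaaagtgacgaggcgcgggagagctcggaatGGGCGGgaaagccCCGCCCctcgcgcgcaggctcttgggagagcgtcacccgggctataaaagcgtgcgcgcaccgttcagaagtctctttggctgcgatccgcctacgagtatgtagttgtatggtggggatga
*Snhg18*, which fell, and *Gas5* and *Snhg8*, whose values were higher, thus all held several GC boxes. The share of promoters with at least 3 or at least 4 was not computed. The *Snhg18* window also holds the start of the coding gene *Sema5a* on the opposite strand, so its boxes are not particular to *Snhg18*. A match describes these letters and does not show that a factor binds there.

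Few reads lay on the snoRNAs themselves, which carry no poly(A) tail. Of the 34 snoRNA rows of the table inside the 10 hosts, 30 had no read in any library, and the highest count among the remaining 4 rows was 16. Over the whole table, 1367 of 1559 snoRNA rows had no read. *Snord123* of *Snhg18* had 5, 7 and 9 reads in si-NC and 7, 5 and 1 reads in si-*Snhg18* libraries. *Snora73b* of *Snhg3* had 7, 12 and 16, then 6, 8 and 5 reads. None of these rows had enough reads to be tested, so a change of the mature snoRNAs could not be measured in these mRNA libraries. Many of the rows overlap an annotated exon of their host, and how reads shared with the host were counted is not given.

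Genes near a host were examined for a change at the same locus. Of 9 tested genes within 10 kb of a member, 1 was called (11.1%, against 7.36% of all tested genes, and 22.2% against 27.2% with the block). This was *Sema5a*, a coding gene for a transmembrane semaphorin. It starts 148 bp from the start of *Snhg18* on the opposite strand. *Sema5a* was at 332.9, 331.8 and 353.8 CPM in si-NC and at 233.6, 269.5 and 255 CPM in si-*Snhg18* libraries, with no overlap (log2FC -0.43, adjusted p = 0.0278 by edgeR). Its fall was smaller than that of *Snhg18*, with an interval from -0.61 to -0.24. The call of *Sema5a* held in 1 of the 6 fits that left out a library. *Slc3a2*, a subunit of amino acid transporters, lies 106 bp from *Snhg1* on the opposite strand and had a log2FC of 0.17 (adjusted p = 0.369 from the same test). *Phactr4*, next to *Snhg3*, had 0.38 (adjusted p = 0.203, and 0.00812 with the block, by the same test). For *Wdr74*, *Trnau1ap*, *Rcc1*, *Zbtb37* and *Prss12* the log2FC lay between -0.25 and 0.09, with adjusted p-values of at least 0.337 from the same test.

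Other noncoding snoRNA hosts moved in both directions. Of 14 listed, 11 were tested, of which 2 were called higher and 1 lower (27.3%, against 7.36% of all tested genes), with a median log2FC of 0.23. With the block the share was again 27.3%, against 27.2% of all tested genes. *Zfas1*, the host of *Snord12*, was at 11.57, 8.902 and 10.76 CPM in si-NC and at 22.95, 16.49 and 17.54 CPM in si-*Snhg18* libraries. *Zfas1* rose without overlap, by a log2FC of 0.87 (adjusted p = 0.0369 by edgeR). *2410006H16Rik*, which encloses *Snord49a*, *Snord49b* and *Snord65*, was at 17.01, 13.88 and 17.03 CPM in si-NC and at 32.49, 28.68 and 30.47 CPM in si-*Snhg18* libraries. The log2FC of *2410006H16Rik* was 0.94 (adjusted p = 0.0121 from the same test), above that of *Gas5*. *Rian*, a maternally expressed imprinted RNA that carries many box C/D snoRNAs, was at 160.6, 197.9 and 174 CPM in si-NC and at 63.71, 100.2 and 71.18 CPM in si-*Snhg18* libraries. *Rian* fell by 1.18 on the log2 scale (adjusted p = 0.0193 from the same test), about as far as the targeted gene. With 1 library left out at a time, *2410006H16Rik* was called in 3 of 6 fits and *Zfas1* and *Rian* in 1 of 6. The 8 others, *Snhg4*, *Snhg10*, *Snhg11*, *Snhg14*, *Snhg16*, *Snhg20*, *Dancr* and *Epb41l4aos*, were not called.

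Taking every tested gene that encloses a row named as a C/D, H/ACA or Cajal body snoRNA on its strand, among them many coding genes for ribosomal proteins, 2 of 79 were called higher and 2 lower (5.06%, against 7.36% of all tested genes). The median log2FC was -0.03. The higher pair were *Zfas1* and *2410006H16Rik* again. The lower pair were *Nop53*, which acts in the assembly of the large ribosomal subunit, with a log2FC of -0.49 (adjusted p = 0.0345 by edgeR), and *Ipo7*, a nuclear import receptor, with -0.50 (adjusted p = 0.0410 from the same test). Each of these calls of *Nop53* and *Ipo7* held in 1 of the 6 fits that left out a library. With the block 8 were higher and 14 lower (27.8%, against 27.2% of all tested genes).

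Of the proteins that bind and build snoRNPs, 1 was called. *Snu13*, which binds the kink-turn of box C/D snoRNAs and also the U4 spliceosomal RNA, fell from 57.2 ± 4.77 to 40.9 ± 2.59 CPM (SD, n = 3 each, log2FC -0.48, adjusted p = 0.0330 by edgeR). It was the 1 called gene among 8 core proteins (12.5%, against 7.36% of all tested genes), whose median log2FC was -0.15, with 7 of the 8 estimates lower. With the block 2 of 8 were called (25%, against 27.2% of all tested genes). The *Snu13* call held in 1 of the 6 fits that left out a library. The methyltransferase *Fbl* (log2FC -0.06), its partners *Nop56* (-0.14) and *Nop58* (-0.20), and the pseudouridine synthase *Dkc1* (-0.16) with *Nhp2* (-0.20) and *Gar1* (-0.08) were not called. *Nop10*, a small H/ACA protein, had a log2FC of 0.38 (adjusted p = 0.0856, and 0.0143 with the block, by the same test). Of 10 assembly factors, 0 were called by edgeR and by limma-voom and 1 by DESeq2, with a median log2FC of -0.18. *Nolc1* and *Ruvbl1* had an unadjusted p under 0.05, 2 of 10, both lower, where 24.9% of all tested genes passed. With the block 1 factor was called lower (10%, against 27.2% of all tested genes).

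Nonsense-mediated decay is the route by which many spliced host RNAs are removed, so its factors were examined beside them. Of 18 tested, 4 were called higher and 1 lower (27.8%, against 7.36% of all tested genes), and with the block 6 and 3 (50%, against 27.2%). The median log2FC of the list was 0.02. *Upf1*, the central helicase, was at 132.8, 111.2 and 131.6 CPM in si-NC and at 209.2, 163.6 and 213 CPM in si-*Snhg18* libraries, with a log2FC of 0.64 (adjusted p = 0.0367 by edgeR). Its groups did not overlap, and library 2 was the lowest of both. *Smg9*, a subunit of the kinase complex that acts on Upf1, rose by a log2FC of 0.81 (adjusted p = 0.0202), *Upf2*, its adaptor, by 0.55 (adjusted p = 0.0478), and *Casc3*, of the exon junction complex, by 0.46 (adjusted p = 0.0182, all from the same test). *Upf3a* fell by 0.46 on the log2 scale (adjusted p = 0.0470 from the same test). Each of these 5 calls held in 1 of the 6 fits that left out a library.

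**Figure D4:**
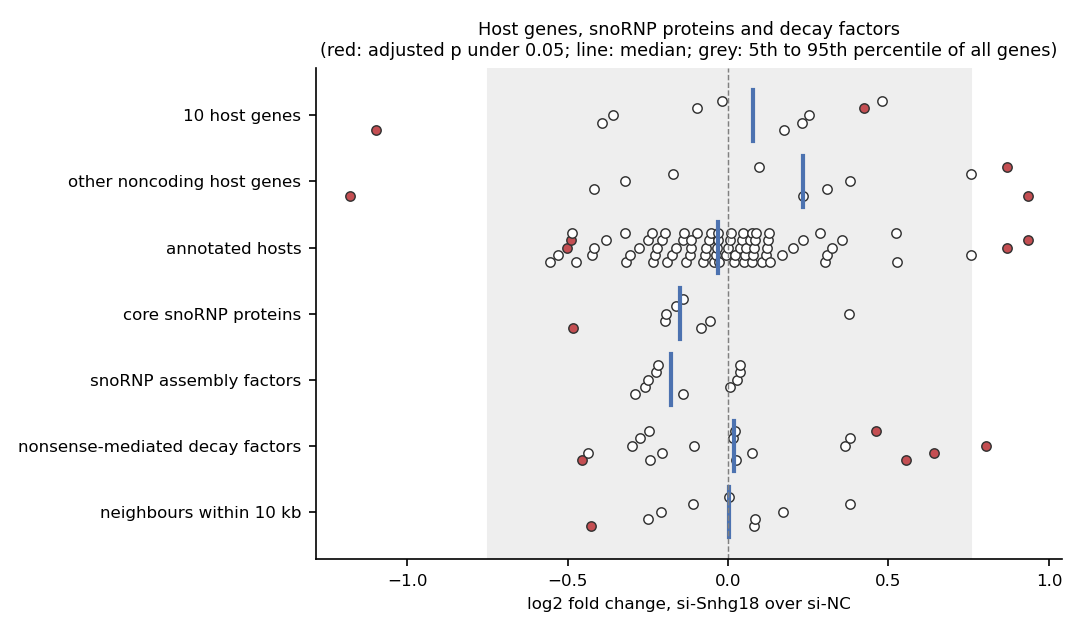
Log2 fold change (horizontal axis) of the 10 host genes and of the tested genes of each related list, red where the adjusted p was under 0.05, with the list's median as a blue line and the 5th to 95th percentile of all tested genes, -0.75 to 0.76, in grey. Among the called genes, *Snhg18* and *Rian* lie beyond the grey band on the lower side and *Zfas1*, *2410006H16Rik* and *Smg9* on the higher side, while assembly factors stay inside it.

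The genes whose 6 log2 CPM values, set to the si-NC mean, lay nearest to those of *Snhg18* by Euclidean distance over the 6 libraries, among 11849 genes whose log2 CPM averaged 1 or more, were *Rer1* (distance 0.0916), *Vps26a* (0.163) and *Pgpep1* (0.182). Their log2FC were -1.08, -1.06 and -1.14, from 141, 161 and 58.9 CPM in si-NC cells. For *Gas5* the nearest were *Jade3* (distance 0.0592, log2FC 0.45), *Gtf2a1* (0.0967, log2FC 0.41) and *mt-Nd2* (0.107, log2FC 0.39). None of these 6 genes is among the 10 hosts.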

How the data were processed

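RNA of mPASMCs was sequenced from 6 TruSeq stranded mRNA libraries (3 si-NC, 3 si-*Snhg18*). The authors deposited whole-number counts of reads per gene, not normalized, with exon lengths. The submitters' processing notes name HISAT2 and mm10, while the counting program, strand setting and treatment of shared reads are not given in the sources used here. Library totals were 18097718 to 25988746 reads, and 54781 of 55487 genes (98.7%) had the same position in GENCODE M21. Groups and repeat numbers came from the labels.

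The groups were compared with edgeR 4.0.16 in R 4.3.3 (filterByExpr, minimum count 10, TMM, glmQLFit and glmQLFTest, Benjamini-Hochberg over 14531 genes, common biological coefficient of variation 0.218). The filter used the groups. Distances used log2 CPM with a prior count of 2. Single values were tested by exact two-sided permutation. Fits were tested on simulated data.

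Alternatives were RLE factors, library totals, DESeq2 1.42.0, limma-voom (limma 3.58.1), other filters, a 1.5-fold threshold, unscaled reads in the share, leaving out each library, and the repeat number as a block. The pairing comes from the repeat numbers in the labels: across genes, deviations of same-numbered libraries from their group means correlated with r = 0.41, 0.742 and 0.359, and si-NC 3 with si-*Snhg18* 1 at 0.497.

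The members and lists were chosen with earlier results of these data known. Named genes were the 10 members, tested genes within 10 kb, called genes of each list (at most 5 by p, and 5 in each direction for annotated hosts), and the 3 nearest genes of *Snhg18* and *Gas5*. Uncalled genes of the host, core snoRNP and marker lists are named in addition. The values of 1 neighbouring gene are not reported here.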

Additional observations from a re-analysis of the deposited data

How the results depend on the processing

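The fall of *Snhg18* and the lower *Snhg18* share kept their direction under every alternative run, and so did the other members' estimates except that of *Snhg5*, which turned above 0 in 3 of the 6 fits that left out a library (-0.27 to 0.16). The 2 calls among the 10 hosts became 1 with library totals, 1 without the filter on low counts, 1 with a 1.5-fold threshold, and 0 to 2 when each library was left out, in which the calls over all genes ranged from 0 to 3282, against 1069. They were 0 without si-NC 1, si-NC 3 or si-*Snhg18* 3, 158 without si-NC 2, 319 without si-*Snhg18* 1 and 3282 without si-*Snhg18* 2. In the 3 fits with 0 calls by edgeR, 2464 to 2731 genes had an unadjusted p under 0.05. Over all genes 2115 were called by DESeq2, 533 with the 1.5-fold threshold and 3954 with the replicate block. With each library left out, the log2FC of *Snhg18* was -1.14 to -1.06 and that of *Gas5* 0.36 to 0.47. *Gas5* was at 0.43 with library totals and 0.41 without the filter, where its call was lost, and *Snhg8* was at 0.49 with the replicate block, where its call was gained. No other member's call changed with the block. The *Snhg18* share differed by -3.79 percentage points per length and -8.50 by reads not divided by length, and by -4.06 without *Snhg3*, an alternative chosen after seeing the data. Calls in the lists were as follows with DESeq2 and with the block: core snoRNP proteins 2 and 2, assembly factors 1 and 1, and annotated hosts 11 and 22, while the block gave 9 decay factors and 2 neighbours. Counting hosts of snoRNA genes of any name gave 19 calls among 264 genes (7.2%) in place of 4. Like the list it replaced, this one left out the 10 members, and it too was chosen after seeing the data. With each library left out, the calls were 0 to 3 for the other noncoding hosts, 0 to 2 for core proteins, 0 to 1 for assembly factors, 0 to 10 for decay factors, 0 to 17 for annotated hosts and 0 to 2 for neighbours. The causes of these changes were not tested. Low counts on the snoRNA rows limit any statement on mature snoRNAs.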
